A study of Mus musculus with 96 samples.

Results

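LbNOX is a water-forming NADH oxidase from Lactobacillus brevis that oxidizes cytosolic NADH to NAD+ with molecular oxygen as the electron acceptor. The comparison described here asks how C2C12 myoblasts expressing LbNOX differed from myoblasts expressing luciferase when no mitochondrial inhibitor was present. Its members are 6 of the 96 RNA-seq samples of the series, chosen by their labels as the proliferating myoblasts treated with the solvent DMSO for 10 hr, 3 with luciferase and 3 with LbNOX. Both groups were of the mouse myoblast line C2C12, had been infected with lentivirus, carried their transgene under a doxycycline-inducible TRE3G promoter, received 300 ng/ml doxycycline from 24 hr before the DMSO, and grew in glucose medium with 10% dialyzed fetal bovine serum and no pyruvate. Each transgene stood in its own stable line, and puromycin and geneticin kept the lines under selection until seeding, so the enzyme and any property of the line that carried it cannot be told apart in these 6 samples. Replicate numbers were given in the labels without saying that cultures were separate, so the spread between samples of a group may be technical. At 10 hr the p-values rest on a spread estimated from all 37 myoblast samples of that experiment, not from these 6 alone. Samples used for comparison were the luciferase and LbNOX lines after 48 hr of DMSO (2 and 2). Others were C2C12 myotubes that received adenovirus with eGFP alone or eGFP and LbNOX and then 10 hr of DMSO (2 and 3). DMSO myoblasts with mitoLbNOX, the same oxidase sent to the mitochondrial matrix (3), or with NDI1, a yeast NADH dehydrogenase that takes the place of complex I (2), were used too. So were luciferase and LbNOX myoblasts treated for 10 hr with the mitochondrial inhibitors piericidin, antimycin or oligomycin.

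NADH made in the cytosol by glycolysis is normally returned to NAD+ by lactate dehydrogenase or by shuttles that pass its electrons to mitochondria. An oxidase such as LbNOX adds another route, and expression of the enzyme lowers the cytosolic NADH/NAD+ ratio and allows cells with an inhibited respiratory chain to keep regenerating NAD+. C2C12 myoblasts are committed muscle precursors that divide in rich serum, express the myogenic factors Myod1 and Myf5, and fuse into myotubes when serum is withdrawn.

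Total counts of the 6 samples ran from 10171225 to 14960910. The LbNOX transgene stood at 9364, 8947 and 9626 normalized counts in the samples labelled LbNOX and at 0 in the luciferase samples, at least 3268-fold higher against a floor of 3 counts per sample. The luciferase transgene stood at 1889, 1840 and 1976 normalized counts in its own samples and at 0 in the LbNOX samples, at least 661-fold lower. Normalized counts are counts divided by DESeq2 size factors and allow samples, but not genes of different length, to be compared. No sample carried another line's transgene. Markers of 7 myoblast genes were detected in both groups, with summed normalized counts of 9202 to 9459 with luciferase and 8045 to 8467 with LbNOX. The summed level of 8 myotube markers was 181 to 221 and 165 to 231, with 6 and 7 of them under a mean of 10. Fibroblast, adipocyte, endothelial and macrophage markers summed to between 21.9 and 187 with luciferase and between 26.6 and 144 with LbNOX. Neural markers summed to 17.4 to 18.1 and 4.91 to 7.98. Of these markers Tcf21, Adipoq, Cdh5 and Sox10 were at 0 in all 6 samples, and no macrophage marker was. Others of the same lists were detected, with Pparg at 85.9 to 123, Pdgfra at 23.3 to 48.1, Pecam1 at 15.3 to 28.4 and Cd14 at 104 to 163 over the 6 samples. On the plate the luciferase samples lay in rows A, E and A and the LbNOX samples in rows B, F and B, so plate row and transgene cannot be told apart.

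LbNOX and luciferase myoblasts differed modestly. Of 11981 genes tested, edgeR's quasi-likelihood test called 321 at an adjusted p under 0.05 (2.68%), of which 2 were the transgenes and 319 were mouse genes. There were 155 mouse genes higher with LbNOX and 164 lower. The shares over all features tested, transgenes included, were 1.3% called higher and 1.38% called lower. Most differences were small. The median absolute log2 fold change of the 319 genes was 0.40, 89 differed by at least 1.5-fold, 16 were at least 2-fold higher and 19 at least 2-fold lower. All 3 samples of a group lay on the same side of the other group for 317 of the 319 genes, and for 17.6% of all genes tested. The 319 genes were called from these same samples, so near-complete separation follows from that choice. The median log2 fold change over all genes was −0.0019. The count fell to 171 when only these 6 samples were fitted, and to 207 without the first luciferase sample and 210 without the second LbNOX sample.

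**Figure D1:**
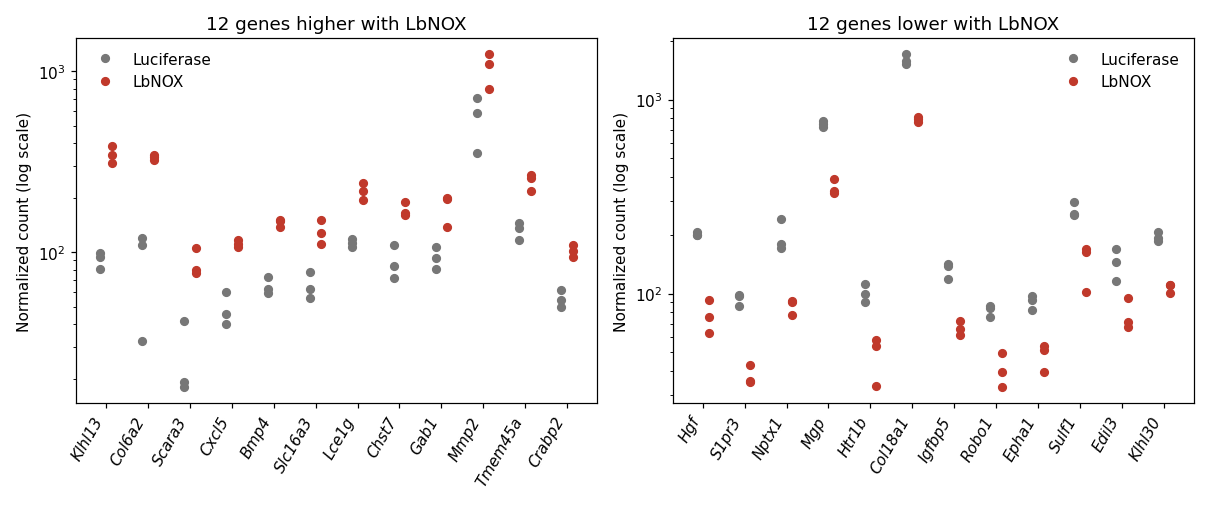
Normalized counts on a log scale (vertical axis) of the 12 genes with the largest increases (left) and the 12 with the largest decreases (right) among called genes with a mean of at least 50 normalized counts. Each point is 1 of 3 luciferase samples (grey) or 3 LbNOX samples (red). The groups do not overlap for any of the 24 genes, as the naming rule required, and Col6a2 shows 1 luciferase sample at 32.4, below the other two.

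The largest increases among well-measured genes included a ubiquitin ligase adaptor, matrix genes, secreted factors and a lactate transporter. Klhl13, a substrate adaptor of cullin ubiquitin ligases, stood at 94.3, 80.97 and 98.5 normalized counts in the luciferase samples and at 386, 342 and 310.2 in the LbNOX samples, and the log2 fold change was 1.92 ± 0.17, with ± giving the standard error of the fit here and for every log2 value that follows (adjusted p = 8.31e-09). Col6a2, a chain of collagen VI, stood at 32.4, 109 and 119.7 with luciferase and 334, 343 and 322 with LbNOX, a log2 fold change of 1.92 ± 0.26 (adjusted p = 1.33e-05). The first luciferase sample was low for this gene, and the LbNOX samples were tight and above all of them. Scara3, a scavenger receptor-like protein induced by oxidative stress, went from 18.1, 41.6 and 19.3 to 79.7, 77.1 and 106, a log2 fold change of 1.69 ± 0.37. Cxcl5, a chemokine that attracts neutrophils, went from 60.03, 40.1 and 45.4 to 111, 106 and 117, a log2 fold change of 1.20 ± 0.21. Bmp4, a secreted ligand of the TGF-β superfamily, went from 62.9, 72.9 and 59.9 to 148, 150.3 and 137, a log2 fold change of 1.15 ± 0.24. Every LbNOX sample was above every luciferase sample for these genes, and the LbNOX samples lay close together for Bmp4 and Cxcl5.

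Slc16a3 encodes MCT4, the monocarboxylate transporter that exports lactate from glycolytic cells. It stood at 78.1, 62.7 and 56.00 normalized counts with luciferase and 127, 150.3 and 111 with LbNOX, a log2 fold change of 0.98 ± 0.20 (adjusted p = 0.00336). The other named increases were those of Lce1g (0.95), Chst7, a sulfotransferase that modifies chondroitin chains (0.95), Gab1, an adaptor of receptor tyrosine kinases (0.92), Mmp2, a gelatinase (0.92), Tmem45a (0.90) and Crabp2, a retinoic acid carrier (0.88), all as log2 fold changes with adjusted p between 3.24e-06 and 0.0192. Mmp2 varied within groups, at 351, 712 and 584 with luciferase and 795, 1235 and 1101 with LbNOX, and the lowest LbNOX sample was only slightly above the highest luciferase sample.

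The 12 named decreases were led by Hgf and S1pr3 in size. Hgf, hepatocyte growth factor and the ligand of the receptor MET, stood at 201, 201 and 207 normalized counts with luciferase and 76.1, 93.1 and 62.8 with LbNOX, a log2 fold change of −1.38 ± 0.23 (adjusted p = 0.000187). Igfbp5, an IGF-binding protein made by differentiating myoblasts, went from 118, 142 and 139 to 72.5, 61.2 and 65.8, a log2 fold change of −1.01 ± 0.15 (adjusted p = 4.42e-05). Col18a1, the collagen that releases endostatin, went from 1709, 1536 and 1578 to 811, 768 and 797, a log2 fold change of −1.02 ± 0.061 (adjusted p = 6.17e-13). Every LbNOX sample was below every luciferase sample for these genes, and the LbNOX samples of Hgf were the more spread out. Mgp, matrix Gla protein and an inhibitor of calcification, went from 753, 777 and 726 to 389, 339.7 and 332, a log2 fold change of −1.09 ± 0.090 (adjusted p = 1.50e-09). Nptx1, a neuronal pentraxin, went from 180.1, 171 and 241 to 91.3, 90.4 and 77.6, a log2 fold change of −1.19 ± 0.15.

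The named decreases also included 4 receptors. S1pr3, a sphingosine 1-phosphate receptor, went from 85.8, 98.5 and 97.5 to 34.9, 42.5 and 35.3 normalized counts, a log2 fold change of −1.32 ± 0.32. Htr1b, a serotonin receptor, had a log2 fold change of −1.05 ± 0.22, Robo1, a receptor of SLIT guidance cues, one of −1.004 ± 0.25, and Epha1, an ephrin receptor, one of −0.91 ± 0.24. The 3 remaining named genes were Sulf1, which trims heparan sulfate (−0.89), Edil3, an integrin ligand (−0.88), and Klhl30 (−0.87). Adjusted p over the 12 named decreases ran from 6.17e-13 to 0.0318.

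Genes with fewer than 50 normalized counts on average fell outside the naming rule, and 3 of them are given here because their values stood out after they were seen. Slc16a7, which encodes the pyruvate and lactate transporter MCT2, was near background with luciferase (0, 2.19 and 8.69) and stood at 28.6, 29.3 and 25.5 with LbNOX, a log2 fold change of 2.94 ± 0.62 (adjusted p = 0.0044). Nefl, neurofilament light chain, stood at 13.3, 10.9 and 8.69 with luciferase and 44.7, 41.9 and 70.7 with LbNOX, a log2 fold change of 2.23 ± 0.44 (adjusted p = 0.00203). Igfbp4, an IGF-binding protein, fell from 47.6, 71.5 and 59.9 to 5.37, 9.31 and 15.7, a log2 fold change of −2.57 ± 0.33 (adjusted p = 6.62e-06). For each of them the groups did not overlap, and low counts make the fitted fold changes of Slc16a7 dependent on the prior count.

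Increases were concentrated on part of chromosome 8. A run of neighbouring genes there, from Lsm6 to Usb1 (GRCm38, chr8:78804865-95347507, 16.5 Mb), held 119 tested genes, of which 60 were called higher and 0 lower. Those 60 were among the 155 genes called higher with LbNOX in the whole genome, so 95 increases and all 164 decreases lay elsewhere. This run was found after the fold changes had been seen, as the stretch of the genome with the largest sum of log2 fold changes above 0.15, and its values are therefore a description. The median log2 fold change in it was 0.34 (1.27-fold), and 114 of 119 genes were above 0, while the other 526 tested genes of chromosome 8 had a median of −0.011. At its edges Slc10a7, just outside, was at −0.14 and Lsm6, just inside, at 0.36. Usb1, the last gene inside, was at 0.27 and Cfap20, the next outside, at 0.11, and the end is less sharp because Setd6, Cnot1 and Got2 a little further on were at 0.37, 0.28 and 0.28.

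The genes of this run are of varied function. Farsa, a subunit of phenylalanyl-tRNA synthetase, went from 1682, 1854 and 1697 normalized counts with luciferase to 2331, 2433 and 2172 with LbNOX, a log2 fold change of 0.40 ± 0.047 (adjusted p = 1.44e-06). Dnajb1, a heat shock co-chaperone, went from 1103, 1185 and 1244 to 1579.6, 1516 and 1582, a log2 fold change of 0.40 ± 0.048. Junb, an AP-1 transcription factor, went from 2052, 2183 and 2148 to 2757, 2679 and 2606, a log2 fold change of 0.33 ± 0.057. Over the 60 called genes the log2 fold change ran from 0.22 for Polr2c to 1.11 for Gm2694. Calr, the endoplasmic reticulum chaperone calreticulin (0.23), Nfix, a transcription factor of fetal muscle (0.44), Prkaca, the catalytic subunit of protein kinase A (0.39), Herpud1, a component of endoplasmic reticulum-associated degradation (0.33), and Mmp2 and Gab1 above also lay in it.

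In this run it was the luciferase line that stood apart from the other 3 lines. Taking each sample's median log2 level over the run relative to the mean of the luciferase samples of its time point, the luciferase samples lay at −0.0027, 0.0027 and 0.0066, the LbNOX samples at 0.32, 0.37 and 0.34, the mitoLbNOX samples at 0.28, 0.29 and 0.30, and the NDI1 samples at 0.32 and 0.31. In the separate 48 hr samples the LbNOX line lay at 0.32 and 0.30. In myotubes, where LbNOX came by adenovirus, the LbNOX samples lay at −0.011, −0.022 and −0.026 relative to GFP. In a direct test against mitoLbNOX, 0 of the 60 genes called higher here differed (edgeR, adjusted p under 0.05). As 0.326% of all genes were called in that test, this count is near that share. Over all 119 genes the median log2 difference was 0.049 with 1 called higher. Against NDI1, 2 of the 60 differed, Ddx39 and Herpud1, both lower with LbNOX, where 1.06% of all genes were called. Over the 119 genes the median was 0.033 with 1 called higher and 3 lower. A difference between lines and an action of the enzymes cannot be told apart in these samples.

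**Figure D2:**
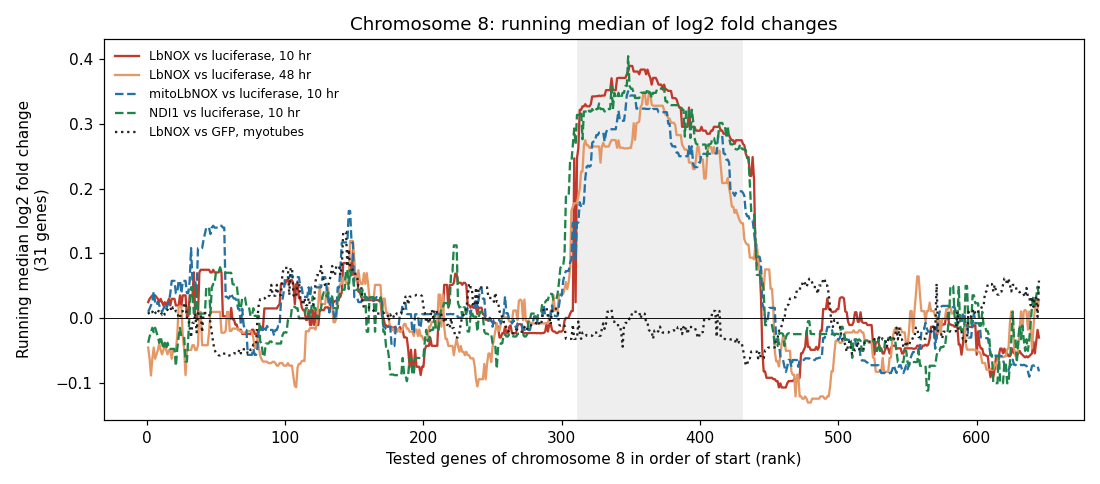
Running median over 31 genes of the log2 fold change (vertical axis) along the 645 tested genes of chromosome 8 in order of start (horizontal axis, rank). Lines show LbNOX (red, solid), mitoLbNOX and NDI1 (dashed) against luciferase at 10 hr, LbNOX against luciferase at 48 hr (orange) and LbNOX against GFP in myotubes (dotted), and the shaded band holds the 119 genes of the run. The 4 myoblast lines of the plot rise together to between 0.35 and 0.40 within the band, and the myotube line stays near 0.

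Genes called at 10 hr mostly kept their sign in a separate experiment with the same lines. After 48 hr of DMSO, with 2 samples a group, 29 of 11704 genes were called (0.248%). Of the 317 genes called at 10 hr that were tested there, 307 had the same sign (96.8%), against 55.6% of the 11236 genes not called at 10 hr. There were 225 of them with the same sign and an unadjusted p under 0.05, against 9.18% of all genes at that p, and 26 were called, while 0 were called in the opposite direction. Outside the chromosome 8 run, 247 of 257 genes had the same sign and 19 were called. No gene was called for a difference between the 48 hr and 10 hr effects by edgeR (0 of 12130, with 616 at an unadjusted p under 0.05) or by DESeq2's Wald test (0), although 278 were with edgeR and no filter on low counts. The 48 hr cells were also seeded more sparsely, and the study describes uridine in the medium of the 48 hr experiment and none at 10 hr, so time, seeding and uridine differ together. The 48 hr count moved with the fit, from 5 with only these 4 samples and 9 with the replicate number as a block to 116 with DESeq2's Wald test and 382 with no filter on low counts, and it was 6 to 16 with any sample left out.

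Several named genes were called again at 48 hr. Spp1, osteopontin, a secreted phosphoprotein of matrix, went from 18898, 18074 and 18377 to 10947, 10277 and 10203 normalized counts at 10 hr, a log2 fold change of −0.82 ± 0.044 (adjusted p = 5.34e-14). At 48 hr it stood at 9672 and 9705 with luciferase and 5266 and 4996 with LbNOX, a log2 fold change of −0.92 ± 0.054 (adjusted p = 0.000267). Hgf had a log2 fold change of −1.51 ± 0.18 (adjusted p = 0.0223) and Klhl13 one of 1.85 ± 0.23 (adjusted p = 0.0223) at 48 hr. Spp1 kept the 48 hr call under every alternative. Hgf kept it with the replicate block but lost it with only the 4 samples fitted, without the second LbNOX sample and without either luciferase sample, and Klhl13 lost it with the block and whichever sample was left out. Col6a2 stood at 0.74 (adjusted p = 0.248) and Mmp2 at 0.15 (adjusted p = 0.84), well below their 10 hr values of 1.92 and 0.92, although neither difference was called.

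In myotubes the genes called in myoblasts shared their sign about as often as the genes not called. LbNOX against GFP gave 3 called genes of 12397 (0.0242%), namely LbNOX itself, eGFP, which was lower with LbNOX, and Ndrg1. The count was 18 with DESeq2's Wald test and 189 with no filter on low counts. Of the 305 genes called in myoblasts and tested in myotubes, 157 had the same sign (51.5%), against 53.2% of the genes not called, and 17 had the same sign with an unadjusted p under 0.05, where 6.03% of all genes were at that p in either direction. None was called. The LbNOX transgene stood at 76402 to 79568 normalized counts in the myotubes, on the scale of the myotube fit. Vector, cell state and control protein all differ from the myoblasts, so their parts cannot be told apart.

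**Figure D3:**
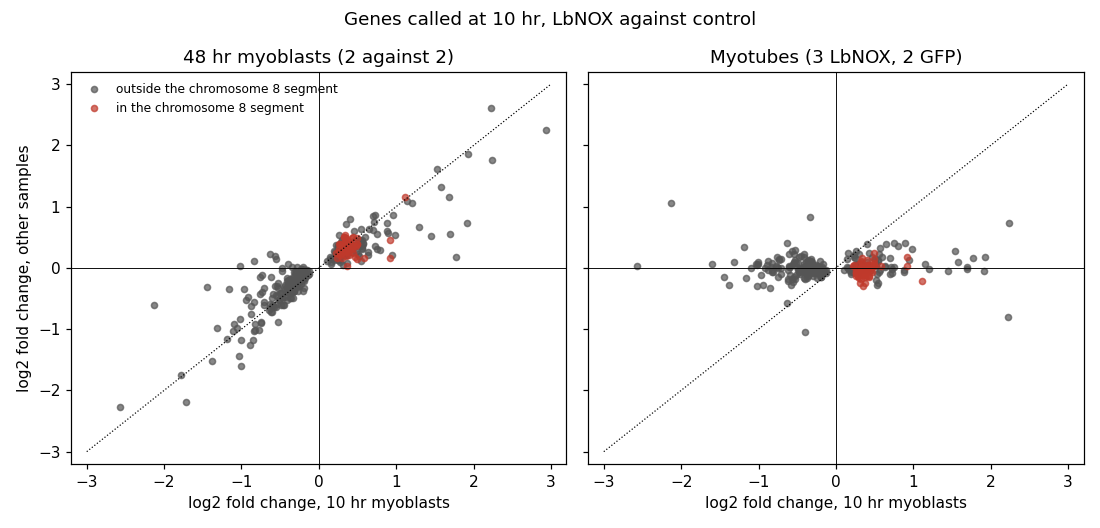
Log2 fold change of the genes called at 10 hr (horizontal axis) against their log2 fold change in separate samples (vertical axis), in 48 hr myoblasts (left) and in myotubes (right), with genes of the chromosome 8 run in red and the dotted line marking equal values. At 48 hr 307 of 317 genes share the sign of the 10 hr value, and in myotubes 157 of 305 do.

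For gene lists of the pathways next to the enzyme, the median of a list is given beside the −0.0019 of all genes. Of 14 tested genes of the cytosolic NADH shuttles and lactate handling, 2 were higher and 0 lower (median −0.023), against 2.68% called over all genes. They were Slc16a3 above and Got2, the mitochondrial aspartate aminotransferase of the malate-aspartate shuttle, which went from 2785, 2737 and 2846 to 3512, 3235 and 3421 normalized counts, a log2 fold change of 0.28 ± 0.043. Got2 lies just past the chromosome 8 run. Ldha, the lactate dehydrogenase subunit of glycolytic cells, had a log2 fold change of 0.084 ± 0.035 (adjusted p = 0.299), and Gpd2, Mdh1, Mdh2, Got1, Slc25a11 and Slc25a12, enzymes and carriers of the shuttles, lay between −0.11 and 0.053 and were not called. Of 22 genes of NAD synthesis and use none was called (median −0.0052), with 1406 genes at an unadjusted p under 0.05 over the whole table.

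Genes of glycolysis and of the hypoxia response lay slightly above 0. Over all genes 1.3% were called higher and 49.5% were above 0. Of 25 glycolytic genes, 1 was called higher, which is near that share, and 20 were above 0 (median 0.069). That call was lost without the first luciferase or the second LbNOX sample. Of 24 tested targets of the hypoxia-inducible factor HIF, the transcription factor stabilized when oxygen is low, 2 were called higher, 0 lower and 16 were above 0 (median 0.16). The HIF count was 0 with only the 6 samples fitted or without the second LbNOX sample, and 1 without the first LbNOX, the first luciferase or the third luciferase sample. Pdk1, the kinase that holds back pyruvate dehydrogenase and a member of both lists, stood at 64.8, 113 and 87.9 normalized counts with luciferase and 141, 169.5 and 141 with LbNOX, a log2 fold change of 0.76 ± 0.17 (adjusted p = 0.0104). P4ha1, a catalytic subunit of collagen prolyl hydroxylase, went from 1301, 1292 and 1239.7 to 1574, 1547 and 1378, a log2 fold change of 0.23 ± 0.052 (adjusted p = 0.00807). The lowest LbNOX sample of P4ha1 was only a little above the highest luciferase sample. Vegfa (−0.025), Slc2a1 (−0.0064) and Ndrg1 (0.022), widely used reporters of the hypoxia response, were not called in myoblasts.

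In myotubes the same HIF list had a higher median, in samples that share none with the myoblasts. The difference between the cell states was not tested, and vector and control protein differ with it. All 24 tested targets had a log2 fold change above 0 with LbNOX, against 50.9% of all genes, with a median of 0.39, and 1 was called. That was Ndrg1, a stress-responsive gene, at 1955 and 2040.5 normalized counts in the GFP samples and 2970.0, 3389.5 and 2768 in the LbNOX samples, a log2 fold change of 0.61 ± 0.082 (adjusted p = 0.0121). The Ndrg1 call was lost without either GFP sample and with only the 5 myotube samples fitted. At 48 hr 14 of 22 tested targets were above 0 (median 0.077). Of the glycolytic genes 24 were tested at 48 hr and in myotubes, with a median of 0.067 and 15 above 0 at 48 hr and a median of 0.16 and 19 above 0 in myotubes. The 3 tested genes of the glucose sensor MondoA, which include its target Txnip, had a median of −0.016 in myoblasts, with none called, and of 0.40 in myotubes.

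The promoters of Pdk1, P4ha1 and Slc16a3 are printed because these genes were called, Pdk1 and P4ha1 as members of the HIF list and Slc16a3 as a member of the list of shuttles and lactate handling. The core of the hypoxia response element was searched as ACGTG or GCGTG on both strands, and matches are in capitals. Sequences are those of RefSeq on GRCm38.p6, from 250 bases before to 50 bases after the annotated start, 5′ to 3′ on the gene's strand. Pdk1 lies at chr2:71872974-71873273 (+), P4ha1 at chr10:59323046-59323345 (+) and Slc16a3 at chr11:120948817-120949116 (+).
Pdk1: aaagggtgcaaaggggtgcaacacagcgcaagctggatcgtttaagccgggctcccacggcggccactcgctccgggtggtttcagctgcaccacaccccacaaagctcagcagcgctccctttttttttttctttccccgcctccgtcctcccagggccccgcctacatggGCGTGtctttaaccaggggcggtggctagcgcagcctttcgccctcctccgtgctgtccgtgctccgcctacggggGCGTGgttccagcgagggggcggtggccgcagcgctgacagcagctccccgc
P4ha1: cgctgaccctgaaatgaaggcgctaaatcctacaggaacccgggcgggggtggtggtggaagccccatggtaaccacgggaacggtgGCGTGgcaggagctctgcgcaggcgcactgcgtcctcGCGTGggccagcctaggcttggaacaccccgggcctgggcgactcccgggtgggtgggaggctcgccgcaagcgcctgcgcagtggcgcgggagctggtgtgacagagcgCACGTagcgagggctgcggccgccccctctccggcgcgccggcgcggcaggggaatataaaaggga
Slc16a3: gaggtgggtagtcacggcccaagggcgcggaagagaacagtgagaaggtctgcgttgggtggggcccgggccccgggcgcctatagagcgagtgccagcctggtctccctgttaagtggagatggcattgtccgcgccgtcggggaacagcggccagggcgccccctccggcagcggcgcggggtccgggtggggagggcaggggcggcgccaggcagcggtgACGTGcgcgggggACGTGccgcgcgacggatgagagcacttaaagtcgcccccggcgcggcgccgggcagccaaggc
There were 2 matches at Pdk1, 3 at P4ha1 and 2 at Slc16a3. A match stood in 43.8% of 27025 promoters, 1 per gene, and 3 or more matches stood in 9.11%, so the letters alone are common and are given as a description, not as sites.

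Among 32 antioxidant genes and targets of NRF2, 3 were higher and 1 lower (median 0.040), where 1.3% and 1.38% of all genes were. Hmox1, the haem-degrading oxygenase, stood at 431, 425 and 399.7 normalized counts with luciferase and 618, 610.3 and 580.2 with LbNOX, a log2 fold change of 0.52 ± 0.073 (adjusted p = 2.21e-05). Sod3, the extracellular superoxide dismutase, went from 343, 335 and 332 to 607, 566 and 470.3, a log2 fold change of 0.70 ± 0.082 (adjusted p = 1.68e-06). Fth1, ferritin heavy chain, had a log2 fold change of 0.10 ± 0.027. The gene that fell was Idh1, the cytosolic NADP-linked isocitrate dehydrogenase, from 729, 791 and 707 to 596, 554 and 527, a log2 fold change of −0.41 ± 0.088 (adjusted p = 0.00466). The called members therefore moved in both directions.

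The integrated stress response had 2 called genes of 50 against luciferase, where 2.68% of all genes were called. This program, driven by the transcription factor ATF4, raises genes of amino acid synthesis and transport when translation initiation is restrained. Of these 1 was called higher, Herpud1 in the chromosome 8 run, and 1 lower (median −0.041, 21 above 0). The lower gene was Cth, cystathionine γ-lyase, which makes cysteine, at 131, 113 and 119.7 normalized counts with luciferase and 76.97, 70.5 and 74.6 with LbNOX, a log2 fold change of −0.71 ± 0.11 (adjusted p = 0.000113). Atf4 stood at 2432, 2357 and 2508 and 2356, 2306 and 2310.1, a log2 fold change of −0.068 ± 0.032 (adjusted p = 0.394). Ddit3, the stress factor CHOP, stood at 179, 160.5 and 145 and 144, 152 and 147, a log2 fold change of −0.13 ± 0.072 (adjusted p = 0.62). The groups overlapped for Ddit3 and nearly touched for Atf4. Asns (0.040), Atf3 (0.17), Gdf15 (0.29) and Ppp1r15a (0.28) were likewise not called, with adjusted p from 0.179 to 0.915. At 48 hr the list had a median of 0.083, with 36 of 49 genes above 0.

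Growth and lipid programs are given beside the 2.68% of all genes that were called, and of their calls those of Rrm2, Msmo1 and Plk2 below were lost when single samples were left out (4, 5 and 1 of the 6). Of 38 genes of DNA replication and S phase 1 was higher (median 0.010), Rrm2, a subunit of ribonucleotide reductase, from 8505, 8100.1 and 8388 to 9529.7, 9497 and 9017 normalized counts, a log2 fold change of 0.16 ± 0.039. None of 28 genes of G2 and mitosis was called (median −0.015). Tk1, thymidine kinase, had a log2 fold change of 0.033 ± 0.052 and Ccne1, cyclin E1, one of 0.063 ± 0.086, neither called. Of 34 genes of sterol and fatty acid synthesis 2 were lower (median −0.049), the desaturase Scd2 (−0.21) and the sterol oxidase Msmo1 (−0.19), while Idi1 stood at −0.060 and was not called. Of 27 targets of p53, 1 was higher, the kinase Plk2 (0.27), and 1 lower, Ccng1 (−0.30), with a median of 0.028, and Cdkn1a (−0.074) and Trp53inp1 (−0.56) were not called.

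Matrix genes were called in both directions. Of 36 tested genes of collagen and matrix, 8 were higher and 3 lower (median 0.087), against 2.68% called over all genes, and 7 and 3 outside the chromosome 8 run. At 48 hr 18 of 34 tested matrix genes were above 0 and the median was 0.0062. Ctgf and Cyr61 encode matricellular proteins that are targets of YAP and of serum response factor. Ctgf stood at 1818, 1875 and 1992 normalized counts with luciferase and 3129.7, 3218 and 2933 with LbNOX, a log2 fold change of 0.70 ± 0.062 (adjusted p = 6.02e-09). Cyr61 went from 4265, 4299 and 4586 to 6059, 5931 and 5601, a log2 fold change of 0.42 ± 0.046 (adjusted p = 5.12e-07). Thbs1, thrombospondin 1, went from 9287, 8946 and 9051 to 10986, 11143 and 10754, a log2 fold change of 0.27 ± 0.043. The groups were well apart for each, and at 48 hr Ctgf (0.85), Cyr61 (0.37) and Thbs1 (0.53) were called again, with adjusted p of 0.00107, 0.0233 and 0.0275, although only Ctgf of these 3 kept the 48 hr call with the replicate block, with only the 4 samples fitted and whichever sample was left out. Col6a1, the partner chain of Col6a2, went from 397, 387 and 368 to 678, 639 and 587, a log2 fold change of 0.72 ± 0.10. Col5a2 (0.33) and the protease Adamts1 (0.54) were higher, and Spp1, Col18a1 and Col1a1, the main chain of collagen I (−0.54), were lower.

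The Cyr61 promoter is printed as that of a called target of YAP, chosen for a motif search. Ctgf was chosen too, but no promoter of it was found in the sequences used. The RefSeq window of Cyr61 lies at chr3:145649936-145650235 (−) on GRCm38.p6. Capitals mark matches to the motif of TEAD factors, the DNA-binding partners of YAP, searched as GGAATG on both strands.
Cyr61: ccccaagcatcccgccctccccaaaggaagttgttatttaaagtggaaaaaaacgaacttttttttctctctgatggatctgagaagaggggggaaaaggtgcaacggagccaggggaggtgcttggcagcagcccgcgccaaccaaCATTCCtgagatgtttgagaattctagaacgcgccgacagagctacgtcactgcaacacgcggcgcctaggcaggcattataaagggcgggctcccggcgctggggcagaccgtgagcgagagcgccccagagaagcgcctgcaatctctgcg
There was 1 match, and 14.6% of the 27025 promoters held at least 1, so the letters are given as a description, not as a site.

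Muscle genes lay below 0 on balance, and 4 were called lower. Of 22 tested genes of myogenic differentiation, 0 were called higher and 4 lower, 3 were above 0, and the median was −0.29, where 1.38% of all genes were called lower and 49.5% were above 0. Des, the muscle intermediate filament desmin, stood at 4086, 4059 and 4264 normalized counts with luciferase and 3460.0, 3173 and 3275 with LbNOX, a log2 fold change of −0.33 ± 0.043 (adjusted p = 8.41e-06). Tnnt2, a troponin T of cardiac and immature skeletal muscle, went from 1082, 1107 and 1128 to 840.4, 852 and 886, a log2 fold change of −0.37 ± 0.054. Chrna1, a subunit of the muscle acetylcholine receptor (−0.26), and Rapsn, which clusters that receptor (−0.39), also fell. At 48 hr the list had a median of −0.30 with 6 of 20 genes above 0, and in myotubes a median of 0.036 with 14 of 22 above 0. Against the luciferase samples of the −0.29 value, the list median was −0.15 with mitoLbNOX and −0.23 with NDI1. Each had 7 of 22 genes above 0. In the direct test against mitoLbNOX 1 gene of the list was called lower with LbNOX and 0 higher. Whether the lines differ over the list was not tested. In the LbNOX and luciferase myoblasts of the −0.29 value, the summed myoblast markers were lower with LbNOX by the values given above, and that sum includes Des. The median over the 7 markers was −0.19 with LbNOX, −0.15 with mitoLbNOX and −0.18 with NDI1. Of the 7 markers 2 were above 0, among them Ncam1, at 1449, 1474 and 1488 normalized counts with luciferase and 1553, 1580 and 1632 with LbNOX. The part of the markers in these differences was not tested.

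Immediate early, imprinted and interferon response genes were called in both directions, where 2.68% of all genes were called. Of 25 immediate early genes 3 were higher and 2 lower (median 0.051). Without the 2 that lie in the chromosome 8 run, 2 were higher and 2 lower and the median was −0.050, and at 48 hr the median of the list was −0.079. The count of 5 was 2 with only the 6 samples fitted or without the first luciferase sample and 3 without the first or second LbNOX or the second luciferase sample, and the median turned below 0 without the second or the third LbNOX or the first or the third luciferase sample. Myc, a growth-promoting transcription factor (0.26), Dusp1 (0.36) and Junb rose, and Dusp6 (−0.32) and Dusp4 (−0.47), phosphatases induced by and acting on ERK, fell. Dusp4 went from 414, 406 and 451 to 316, 320.5 and 279.8 normalized counts (adjusted p = 0.000679). Of 10 tested imprinted growth genes 1 was higher and 2 lower (median −0.34, and −0.13 with no filter on low counts). At 48 hr the median of these 10 genes was −0.074 and 4 were above 0. Peg3, a paternally expressed zinc finger gene, went from 684, 704 and 711 to 426, 429 and 396, a log2 fold change of −0.75 ± 0.093 (adjusted p = 3.83e-06), and H19, a maternally expressed non-coding RNA, from 300.2, 285 and 308 to 208, 169 and 211, a log2 fold change of −0.61 ± 0.089 (adjusted p = 4.13e-05). Gatm, the enzyme of creatine synthesis, was higher (0.33). Of 25 interferon response genes 1 was higher, H2-K1 (0.29), and 3 lower, Ifitm3 (−0.20), B2m (−0.18) and the sparsely counted Ccl5, with a median of −0.057. No interferon gene was called with only the 6 samples fitted, with no filter, or without the first or second LbNOX or the first luciferase sample, 1 was without the third luciferase sample and 2 without the third LbNOX sample, and the median rose to 0.031 without the second luciferase sample.

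Transcripts encoded by mitochondrial DNA lay below 0, and 5 were called lower. All 15 tested genes had a log2 fold change below 0, and the median was −0.31, where 1.38% of all genes were called lower and 49.5% were above 0. The count of 5 was 0 without the first luciferase or the second LbNOX sample, 2 without the first or the third LbNOX sample, 3 with only the 6 samples fitted, 9 with the replicate block and 12 with no filter. They made up 3.60%, 2.87% and 2.95% of counts in the luciferase samples and 2.62%, 2.17% and 2.44% in the LbNOX samples, so the groups did not overlap. The share was also below every luciferase sample with mitoLbNOX (2.65%, 2.20% and 2.31%) and with NDI1 (2.36% and 2.38%). Against the same luciferase samples the list median was −0.073 with mitoLbNOX and −0.44 with NDI1, with 4 and 0 of 15 above 0. mt-Nd1, a subunit of complex I, stood at 23473, 20231 and 18415 normalized counts with luciferase and 16549, 15886 and 15767 with LbNOX, a log2 fold change of −0.37 ± 0.085 (adjusted p = 0.0105). mt-Rnr2, the large ribosomal RNA, had a log2 fold change of −0.48 ± 0.10, and mt-Co3, mt-Nd4 and mt-Nd5 lay between −0.33 and −0.23. The median was −0.15 with 2 of 15 above 0 at 48 hr and −0.026 in myotubes, and whether these differ from the 10 hr value was not tested for the list.

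**Figure D4:**
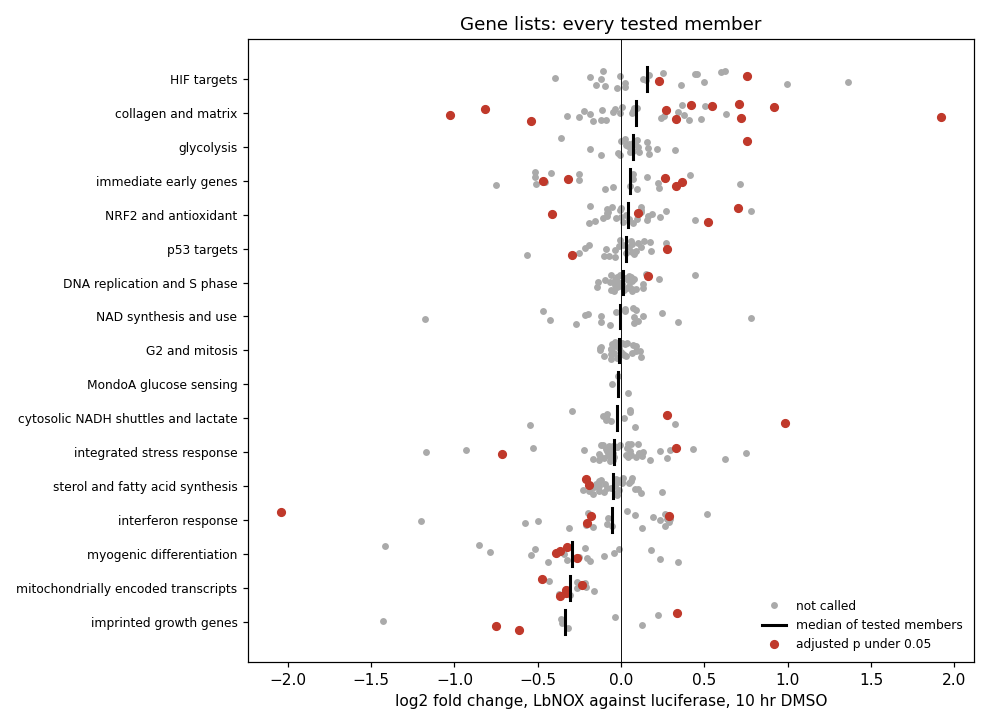
Log2 fold change of LbNOX against luciferase at 10 hr (horizontal axis) for every tested member of 17 gene lists (vertical axis, ordered by median). Red points passed an adjusted p under 0.05, grey points did not, and black bars are list medians, which run from −0.34 for imprinted growth genes to 0.16 for HIF targets.

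Direct tests against the other enzyme lines were made for the same genes. LbNOX against mitoLbNOX gave 39 called genes of 11981 (0.326%), 11 higher and 28 lower, including the LbNOX row itself, whose reads do not separate both forms of the enzyme. That row stood at 9364, 8947 and 9626 normalized counts with LbNOX and at 18464, 17628 and 20474 with mitoLbNOX, a log2 difference of −1.02 (adjusted p = 9.71e-05), so the amount of transgene RNA and the compartment of the enzyme cannot be told apart in this comparison. Higher calls made up 0.0918% of genes tested and lower calls 0.234%. The count was 4 when only these 6 samples were fitted and 14 to 22 with any sample left out. Of the 319 genes called against luciferase, 18 differed between LbNOX and mitoLbNOX, in a comparison that shares the LbNOX samples with the choice of those genes. They included Slc16a7, at 2.94 with LbNOX and 0.20 with mitoLbNOX against luciferase, a log2 difference of 2.74 ± 0.61 (adjusted p = 0.035), a call that was lost whichever of the 6 samples was left out and with only these 6 fitted. Nefl stood at 2.23 and −0.75 (adjusted p of the difference = 0.00127). Hmox1 stood at 0.52 and 0.073 (adjusted p = 0.00158). P4ha1 stood at 0.23 and −0.079 (adjusted p = 0.00229). Ldha, which was not called against luciferase, also differed between the enzymes, at 0.084 and −0.080 (adjusted p = 0.0306). Nefl, Hmox1 and P4ha1 kept the call whichever sample was left out, Ldha lost it without any but the second mitoLbNOX sample, and all 4 lost it with only these 6 samples fitted. For these genes the mitoLbNOX samples lay near or below the luciferase level.

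Lower with LbNOX than with mitoLbNOX were Igfbp5 (−0.72), Col1a1 (−0.52), H19 (−0.46), Actg2, a smooth muscle actin (−0.26), Myl9, a myosin light chain (−0.27), Stmn2 (−0.32), mt-Nd1 (−0.39) and Cth (−0.81), as log2 differences. Ctgf (0.30), Cyr61 (0.24), Ugdh (0.19), Prl2c2 (0.66) and Prl2c3 (0.60) were higher than with mitoLbNOX, and Aldh1l2, a mitochondrial folate enzyme, was higher than with luciferase but lower than with mitoLbNOX (−0.32). Prl2c2 and Prl2c3 are near-identical genes whose reads can be split between them, so their separate values are uncertain.

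Of the stress response list, 9 of 50 genes were lower with LbNOX than with mitoLbNOX and 0 higher, where 0.234% of all genes were called lower. With only the 6 samples of these groups fitted, 1 of the 9 kept the call, and with any sample left out 4 to 6 of the list were called. Trib3, a pseudokinase induced by ATF4 and CHOP, stood at 101, 76.6 and 81.1 normalized counts with luciferase, 60.9, 89.8 and 76.6 with LbNOX and 171, 185 and 171 with mitoLbNOX, a log2 difference of −1.20 ± 0.10 between LbNOX and mitoLbNOX (adjusted p = 4.80e-09). Luciferase and LbNOX samples overlapped, and every mitoLbNOX sample was above all of them. Ddit3 stood at −0.13 with LbNOX, 0.27 with mitoLbNOX and 0.59 with NDI1 as log2 fold changes against luciferase. Chac1, a glutathione-degrading enzyme (−0.53), the glycine transporter Slc6a9 (−0.50), Eif4ebp1 (−0.28), the serine synthesis enzyme Psph (−0.24), Mthfd2 (−0.20) and Sars (−0.18) were the other members, besides Cth, as log2 differences from mitoLbNOX. Over the whole list the medians against luciferase were −0.041 with LbNOX, 0.15 with mitoLbNOX and 0.31 with NDI1, with 21, 41 and 50 of 50 genes above 0. The 3 comparisons share the luciferase samples.

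Against NDI1, 127 genes were called (1.06%; 28 when only those 5 samples were fitted), and 33 of the 319 genes were among them, again with the LbNOX samples shared, and some lay further from luciferase with LbNOX and others with NDI1. Klhl13 differed most plainly, at 1.92 with LbNOX, 1.89 with mitoLbNOX and −2.68 with NDI1 against luciferase. Des, Cth, Nefl, Slc16a7, Sod3, Cxcl5, Col6a1 and Col18a1 were also among the genes that differed, in either sense. Against luciferase, mitoLbNOX gave 212 called genes (1.77%) and NDI1 552 (4.61%). With only the groups compared these were 92 and 228. Without the third luciferase sample they were 141 and 367, and NDI1 gave 306 and 279 without its first and second sample. Other named genes had like values in all 3 lines, such as Spp1 (−0.82, −0.82 and −0.75), Mgp (−1.09, −0.98 and −1.02) and Hgf (−1.38, −1.35 and −1.61), in the order LbNOX, mitoLbNOX and NDI1. Sharing the luciferase samples, these values are side by side as descriptions.

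**Figure D5:**
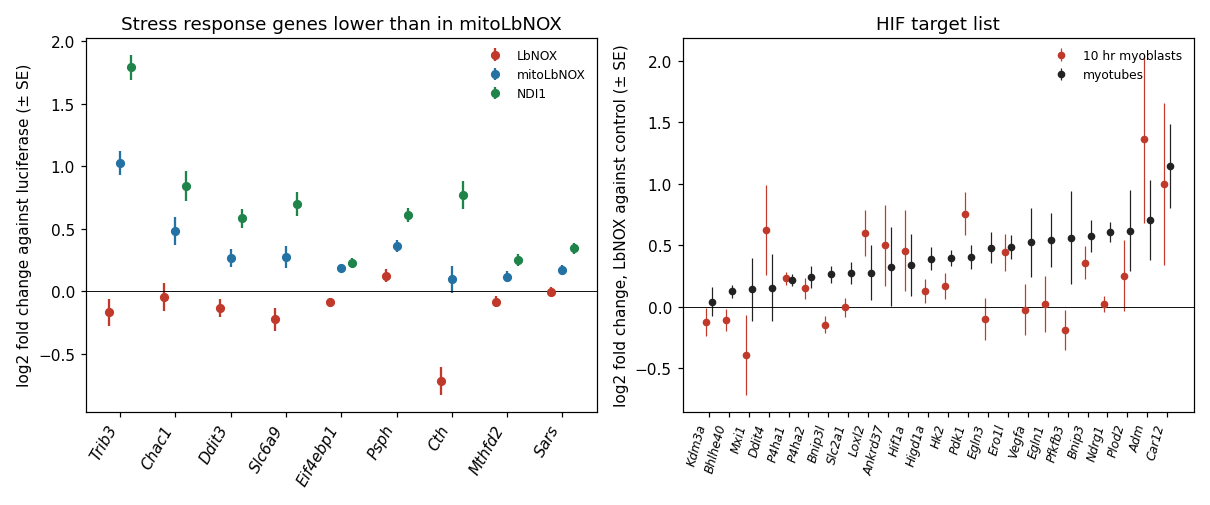
Left, log2 fold change against luciferase (± SE) of the 9 stress response genes that were lower with LbNOX than with mitoLbNOX, for LbNOX (red), mitoLbNOX (blue) and NDI1 (green) at 10 hr. Right, log2 fold change (± SE) of the 24 tested HIF targets with LbNOX in 10 hr myoblasts (red) and in myotubes (black), where all 24 black points lie above 0 and 16 red points do.

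The baseline differences were partly visible when the same lines were treated with inhibitors for 10 hr, in samples that share none with the DMSO groups. With oligomycin, an inhibitor of ATP synthase, 2282 genes differed between LbNOX and luciferase (19%), and 256 of the 319 baseline genes had the same sign (80.3%, against 54.0% of the other genes), while 21 were called in the opposite direction. With antimycin, an inhibitor of complex III, 7560 genes differed (63.1%) and 218 had the same sign (68.3%, against 51.9%), with 81 called in the opposite direction. With antimycin the 95 increases outside the chromosome 8 run had the same sign in 55.8%, with 41 called the same way and 40 the opposite way, and the 164 decreases in 76.2%, with 108 and 27. With piericidin, an inhibitor of complex I, 6758 genes differed (56.4%) and 198 had the same sign (62.1%, against 51.3%), with 97 called in the opposite direction. The chromosome 8 run had median log2 fold changes of 0.33, 0.30 and 0.40 with these inhibitors in the same order. Of its 119 genes 61, 60 and 67 were called higher, where 8.7%, 30.4% and 28.3% of all genes were, and 1, 27 and 22 were called lower, where 10.3%, 32.7% and 28.1% of all genes were. The share above 0 was 85.7%, 63.9% and 73.1%, and 95.8% in DMSO.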

How the data were processed

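The authors made Smart-seq2 libraries from polyA-selected RNA of C2C12 cells and sequenced them, without strand information, on 2 flow cells. Per the study's methods and the submitters' processing notes (bcl2fastq 2.20.0.422, kallisto 0.44), the authors assigned reads to Ensembl 93 transcripts of GRCm38 and the transgenes and summed them to genes with tximport, and the deposited values are these estimated counts, not normalized, for 54146 genes and 4 transgenes. Because the assignment splits reads among similar sequences, near-identical genes (Prl2c2 and Prl2c3, Hmga1 and Hmga1b) are uncertain, and overlapping and antisense genes cannot be separated.

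Groups came from the sample titles. Estimated counts were rounded and tested in R 4.3.3 with edgeR 4.0.16 (TMM, quasi-likelihood F test, Benjamini-Hochberg adjustment, threshold 0.05) on genes that reached 16 counts in all replicates of any 1 condition, as in the study's methods. Fits held all 37 myoblast samples of the 10 hr experiment, 8 of the 48 hr experiment, all 45 for the difference between them, and 15 myotube samples. Standard errors were obtained from each F statistic, as the size of the log2 value over the root of F. Normalized counts use DESeq2 1.42.0 size factors. Total counts per sample ran from 10171225 to 14960910 in the 6 samples, and the detection floor of 3 counts covers counting error only.

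Named genes are up to 12 per direction with the largest changes among called genes with a mean of at least 50 normalized counts, groups that do not overlap and a named symbol, besides the transgenes, called and defining members of 17 pathway lists and 11 genes the study follows. Genes named outside this rule were chosen after their values were seen. Members and lists were chosen with earlier results of these data known. Positions are those of GENCODE M21. The test was tried on simulated data. Alternatives were DESeq2 size factors, no filter, DESeq2's Wald test, the replicate number as a block, only the groups compared, outer or inner well as a covariate, and each replicate left out.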

Additional observations from a re-analysis of the deposited data

Results flagged for a closer look

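Of 84 genes given above that were called in myoblasts and tested in myotubes, 8 had every LbNOX sample on the opposite side of the control in myotubes from its side in myoblasts, and 12 had every sample on the same side. Among all 1983 genes whose groups did not overlap in myoblasts, 184 were opposite in this way (9.28%) and 233 were on the same side. The opposite share is thus near that of all such genes. In each case the difference between the cell states was not tested. Adamts1 was higher with LbNOX in myoblasts (0.54 ± 0.11) and had a log2 fold change of -0.2515 in myotubes. Lsm6 (0.36 in myoblasts) stood at -0.3033 and Actg2 (−0.37) at 0.1298. Dusp4 (−0.47 ± 0.085 in myoblasts) stood at 0.175, Dusp6 (−0.32 ± 0.086) at 0.1441, H19 (−0.61 ± 0.089) at 0.234, Igfbp5 (−1.01 ± 0.15) at 0.05829 and Nptx1 (−1.19 ± 0.15) at 0.3394 in myotubes, as log2 fold changes against GFP. None of these myotube values was called by edgeR (adjusted p from 0.6 to 0.917).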

How the results depend on the processing

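For the 90 called genes given with a 10 hr value, the direction against luciferase held under every alternative run that could test them. Of these 90, 24 lost the call without the first luciferase sample, 24 without the second LbNOX sample, 18 to 23 without any other, 25 of 89 with only the groups compared, 13 with no filter, and 1 or 2 under the other settings. Over all genes given at 10 hr, 1316 values kept their side of the threshold, 174 lost the call, 3 gained it and 15 changed sign, the last in 8 genes that were not called. Leaving out samples moved these from below to above 0, namely Ccne1 (−0.00679 to 0.18), Atf3 (−0.35 to 0.35), Asns (−0.000143 to 0.073), Mdh2 (−0.0045 to 0.031), Ndrg1 (−0.078 to 0.083), Slc25a12 (−0.0032 to 0.083), Slc2a1 (−0.062 to 0.064, and 0.021 with the well covariate) and Vegfa (−0.18 to 0.13). Of 8 genes given as called at 48 hr, 3 kept the call with only the groups compared, 4 with the replicate block and 2 to 5 with any sample left out. Of 26 given as called against mitoLbNOX, 2 kept it with only the groups compared (Trib3 and Prl2c2) and 10 to 16 with any sample left out. Ndrg1 in myotubes lost the call with only the groups compared and without either GFP sample. The genes followed here beyond the naming rule, and these checks of them, were chosen after seeing the data. List counts moved by more than 1.5 times under some alternative in 47 cases and did not in 174. The counts of the shuttle, MondoA, NRF2, myogenic, matrix, G2 and imprinted lists did not move so under any alternative. The others ranged from 0 to 1 for NAD synthesis, 0 to 4 for glycolysis, 1 to 4 for the stress response, 1 to 3 for sterol synthesis, 0 to 2 for S phase, 1 to 2 for p53, 0 to 3 for HIF, 0 to 4 for interferon, 2 to 5 for immediate early genes and 0 to 12 for mitochondrially encoded transcripts. List medians moved by more than their spread between samples in 26 cases, and crossed 0 for the shuttles (−0.066 to 0.044), NAD synthesis (−0.041 to 0.029), MondoA (−0.071 to 0.020), G2 (−0.029 to 0.0022), p53 (−0.0072 to 0.072), interferon (−0.11 to 0.031) and immediate early genes (−0.050 to 0.072).

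With only the groups compared, counts were 171 for LbNOX against luciferase at 10 hr, 5 at 48 hr, 4 against mitoLbNOX, 28 against NDI1, 92 for mitoLbNOX and 228 for NDI1 against luciferase. With no filter on low counts they were 474 at 10 hr (294 higher and 180 lower, against 156 and 165), 382 at 48 hr, 189 in myotubes, 278 for the 48 hr minus 10 hr difference, 144 against mitoLbNOX, 235 against NDI1 and 542 for mitoLbNOX against luciferase. DESeq2's Wald test gave 116 at 48 hr and 18 in myotubes, and 339 at 10 hr, of which 303 were shared with the calls reported. The well covariate gave 70 at 48 hr. Without the genes of the chromosome 8 run, an alternative added after the data were seen, counts were 236 at 10 hr and 19 at 48 hr.

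With any sample left out, counts ranged from 207 to 255 at 10 hr, 6 to 16 at 48 hr, 14 to 22 against mitoLbNOX, 58 to 124 against NDI1, 141 to 193 for mitoLbNOX and 279 to 471 for NDI1 against luciferase. Where a group of 2 lost a sample, the remaining sample was assumed to vary like the other groups. The cause of these changes was not tested.

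Deviations of same-numbered luciferase and LbNOX samples at 10 hr correlated at 0.24, 0.17 and 0.020. Those of differently numbered samples correlated at −0.26 to 0.12, and sample 3 of LbNOX correlated better with luciferase sample 2. The replicate number may thus pair the 10 hr samples weakly, and the main fit had no block. At 48 hr, with 2 pairs, the correlation was 0.31. With the replicate number as a replicate block, 343 genes were called at 10 hr, 9 at 48 hr and 5 in myotubes. With 3 samples a group and medians of called differences near 0.40 on the log2 scale, small differences can be missed at this depth, so a gene that was not called is not shown to be alike in both groups.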

Other observations

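Called genes not described above included secreted class 3 semaphorins, guidance cues of growing axons and vessels, which were named after their values had been seen and which went in both directions. The other tested members, Sema3b (−0.051) and Sema3d (−0.71, adjusted p = 0.298), were not called, and 2.68% of all genes were. Sema3a stood at 1061, 994 and 1065 normalized counts in the luciferase samples and 745, 755 and 789 in the LbNOX samples, a log2 fold change of −0.45 ± 0.084 (adjusted p = 0.0011 by edgeR). Sema3e stood at 339, 315 and 349 with luciferase and 195, 235 and 252 with LbNOX (−0.56 ± 0.14, adjusted p = 0.0247). Sema3c stood at 125, 90.5 and 86.9 with luciferase and 169, 142 and 148 with LbNOX and was higher with LbNOX (0.60 ± 0.16, adjusted p = 0.0306). Sema3a and Sema3e lie with Hgf in a run of 6 neighbouring genes of at least 50 normalized counts on chromosome 5, from Sema3d to Hgf, whose median log2 fold change was −0.50. Of those 6 genes, 3 (Sema3a, Sema3e and Hgf) were called lower.

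A few other called genes outside the lists were picked after their values were seen. Hmga2, an architectural chromatin protein of growing embryonic cells, stood at 544, 472 and 533 normalized counts with luciferase and 367, 329 and 379.9 with LbNOX, a log2 fold change of −0.53 ± 0.11 (adjusted p = 0.00511). Fbln2, a matrix fibulin, went from 3431, 3555 and 3464 to 4974, 5409.8 and 4818, a log2 fold change of 0.54 ± 0.045 at 10 hr and of 0.46 ± 0.048 at 48 hr, called at both times. Vcan, the proteoglycan versican, went from 1056, 1075 and 1039 to 713, 735 and 775, a log2 fold change of −0.52 ± 0.064 at 10 hr and −0.52 ± 0.074 at 48 hr, also called at both times. Fbln2 kept the 48 hr call with the replicate block and without the first LbNOX sample but lost it with only the 4 samples fitted and without any other sample, and Vcan lost it under each of these.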
